A study of Mus musculus with 847 samples.

Results

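The 7 genes of lipid transport described here were followed across the mouse brain: the apolipoprotein genes Apoe, Apod and Clu, and the lipid transporter genes Abca1, Abca7, Abca8a and Abcg1. They were taken by name from a count table of 21076 genes, with earlier results of these data known. The study sequenced mRNA from 15 dissected brain regions of 59 C57BL/6JN mice, an inbred strain without any transgene or treatment in the labels, to follow ageing by region. Each mouse gave up to 15 libraries, and each region has 51 to 59 libraries. Both sexes were collected at 3, 12, 15, 18 and 21 months, with 5 females and 5 males at each of these ages except 21 months, which had 5 females and 6 males. The 26-month group held 5 males and the 28-month group 3 males (2 in the hypothalamus), so there were 25 females and 34 males and no female older than 21 months. In homogenised tissue, fewer cells of a type and less RNA per cell cannot be told apart.

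Cholesterol in the brain is made locally, because lipoproteins of the blood do not cross the blood-brain barrier. Astrocytes, and microglia under stress, secrete apolipoprotein E, and the membrane pumps ABCA1 and ABCG1 load it with cholesterol and phospholipid before neurons and glia take up the particles through receptors of the LDL receptor family. Clusterin, the product of Clu, is a secreted chaperone that also rides on lipoprotein particles. Apolipoprotein D is a lipocalin, made in the brain largely by oligodendrocytes and by cells around vessels, that binds small hydrophobic molecules. ABCA7 is a close relative of ABCA1, and ABCA8A belongs to a small subfamily of ABCA transporters encoded side by side on 1 chromosome. APOE, CLU and ABCA7 are known from human genetics of late-onset Alzheimer's disease.

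On GRCm38, the build named in the submitters' processing notes, the protein-coding genes lay as follows in the GENCODE M21 annotation. Apoe was at chr7:19696109-19699188 on the minus strand, Apod at chr16:31296192-31314808 on the minus strand and Clu at chr14:65968483-65981547 on the plus strand. Abca1 was at chr4:53030787-53159895 on the minus strand, Abca7 at chr10:79996494-80015572 on the plus strand, Abca8a at chr11:110025634-110095978 on the minus strand and Abcg1 at chr17:31057675-31117988 on the plus strand. No other annotated gene shared exon bases with any of the 7. Of all 50-base stretches of their transcripts, 1.64% of those of Abca8a also occurred in its paralog Abca8b, 0.226% of those of Apod and 0.177% of those of Abcg1 occurred in another gene, and none did for Apoe, Clu, Abca1 and Abca7.

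RefSeq promoter windows on GRCm38.p6 were matched by symbol for 5 of the 7 genes. The sequence before the transcript start is shown for the 4 of these whose RNA rose with age in at least 8 regions. Apoe has 3 RefSeq windows, and the one shown is at the start of the annotated gene. Capitals mark matches, on either strand, to 5 motifs. The letters searched were TATAAA for a TATA box and GGGCGG for a GC box. For a nuclear receptor half-site they were AGGTCA, and the CCAAT box is named by its letters. A SOX core was searched as ACAAAG. The first lies at chr7:19699189-19699438, the second at chr16:31314809-31315058, the third at chr4:53159896-53160145 and the fourth at chr11:110095979-110096187, all on the minus strand and written 5′ to 3′.
Apoe: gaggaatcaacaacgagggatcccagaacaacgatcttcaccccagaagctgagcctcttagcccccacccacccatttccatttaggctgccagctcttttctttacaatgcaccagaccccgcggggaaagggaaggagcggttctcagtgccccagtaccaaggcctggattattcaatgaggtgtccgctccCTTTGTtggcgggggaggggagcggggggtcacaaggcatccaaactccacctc
Apod: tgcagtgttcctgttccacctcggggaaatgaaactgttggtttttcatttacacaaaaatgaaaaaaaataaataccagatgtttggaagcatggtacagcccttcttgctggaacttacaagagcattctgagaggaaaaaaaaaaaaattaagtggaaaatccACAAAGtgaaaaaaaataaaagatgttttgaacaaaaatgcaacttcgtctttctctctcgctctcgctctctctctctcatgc
Abca1: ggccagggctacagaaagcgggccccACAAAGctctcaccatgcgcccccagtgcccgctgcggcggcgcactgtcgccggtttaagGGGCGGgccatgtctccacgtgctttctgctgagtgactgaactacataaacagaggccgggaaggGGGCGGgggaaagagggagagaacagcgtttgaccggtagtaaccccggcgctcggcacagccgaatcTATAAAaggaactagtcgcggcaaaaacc
Abca8a: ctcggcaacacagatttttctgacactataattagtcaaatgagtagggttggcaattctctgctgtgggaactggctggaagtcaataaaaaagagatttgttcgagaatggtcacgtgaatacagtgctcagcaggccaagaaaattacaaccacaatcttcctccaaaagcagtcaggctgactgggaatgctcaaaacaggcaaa

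The Abca1 sequence held 1 TATA box match 29 bases before its start, with 2 GC box matches and 1 SOX core match. Apoe and Apod each held 1 SOX core match, at 54 and 84 bases before the start, and the Abca8a window held none of the 5 motifs. Of 32851 RefSeq promoter windows of 300 bases, 13.6% held the TATA box, 35.7% the GC box, 37.4% the CCAAT box, 16.3% the half-site and 18.7% the SOX core. No set of these motifs was common to the 4 sequences shown. Of the other windows of Apoe, 1 held 2 TATA box matches and the other held none of the motifs. A match is a stretch of letters and is no measure of binding.

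Library totals ran from 481444 to 26756735 counts with a median of 6716032, and 10 libraries were under 1000000. All 7 genes were counted in every library: the median count was 18022 for Apoe, 7800 for Clu, 1959 for Apod, 296 for Abcg1, 125 for Abca1, 90 for Abca8a and 63 for Abca7. Levels are given as CPM, the counts of a gene per 1000000 counts of its library. Markers of more than 1 cell type were present in several dissections. The summed level of 8 choroid plexus epithelium genes had a median of 5984 CPM in choroid plexus libraries, where 9 genes of mature oligodendrocytes summed to a median of 13060 CPM. The same epithelial genes had a median of 507 CPM in the corpus callosum and reached 15212 CPM in a 3-month library there. Across 11958 genes, after the mean of the 15 region profiles was subtracted, each library was correlated with the profile of every region. Of all libraries, 21 correlated best with a region other than their label, 11 of the 21 being posterior hippocampus libraries. The entorhinal cortex library of mouse 52 was farthest from its label, with r = -0.45 to entorhinal cortex and 0.79 to medulla, where the other libraries of that region had a median r of 0.89 to their own. All libraries were kept, and slopes are also given without these 21 where a call differs.

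The 3 apolipoprotein genes were far more abundant than the 4 transporter genes everywhere. Per kilobase of exon, the mean over the regions was 1335 CPM for Apoe, 347 CPM for Clu and 159 CPM for Apod, against 6.06 CPM for Abcg1, 2.00 CPM for Abca1 and 1.60 CPM for Abca7, with Abca8a between Abcg1 and Abca1. Each gene had its own order of regions, plotted as mean levels by region.

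**Figure D1:**
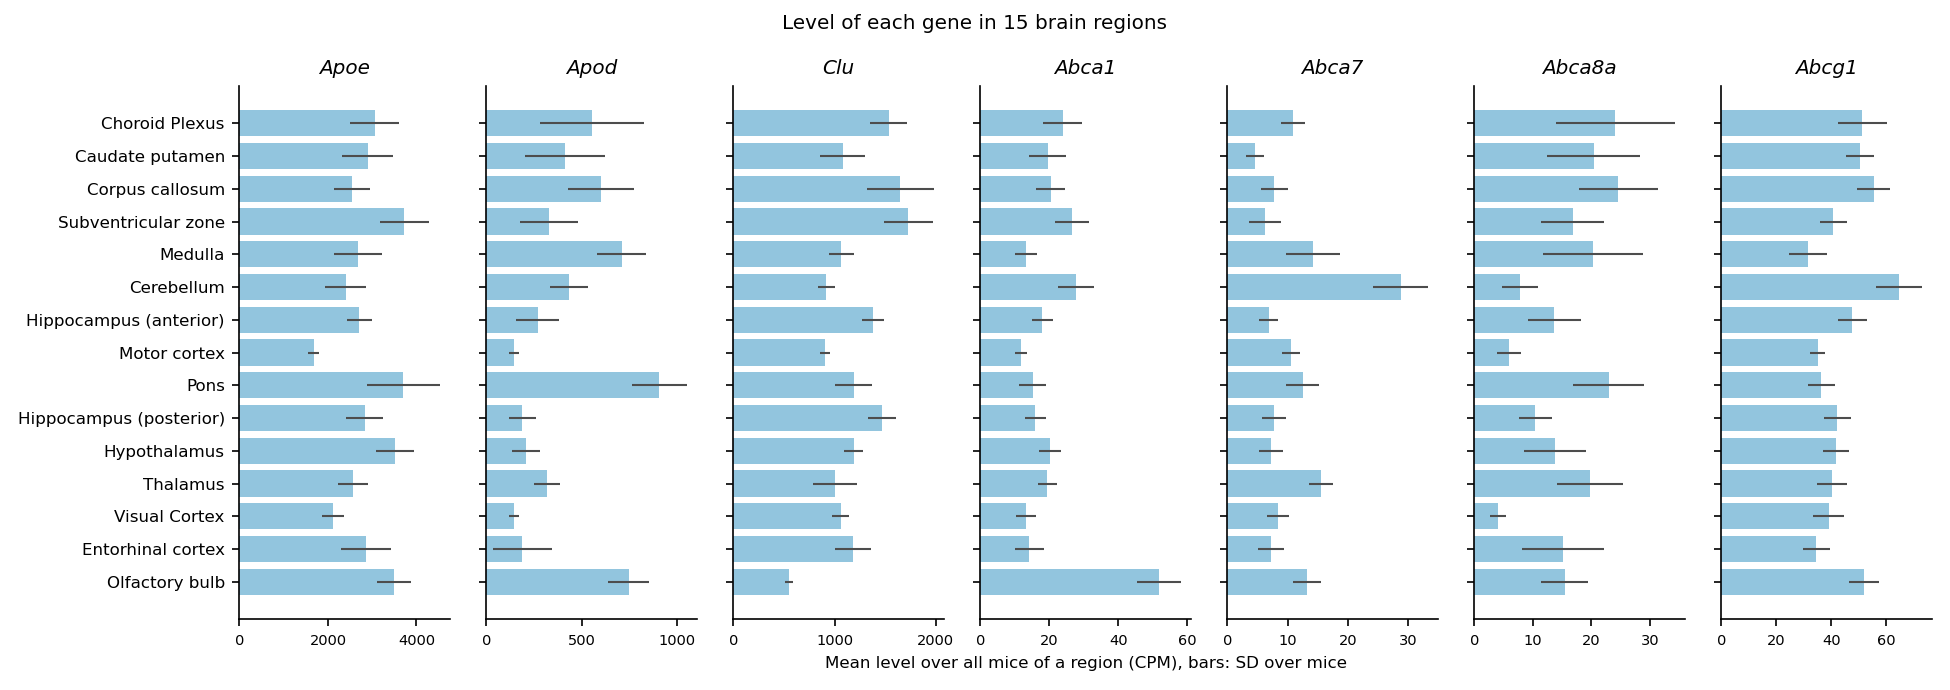
Bars give the mean level (CPM) of each gene over all mice of a region, with 51 to 59 mice per region, and lines give the SD over mice. Each panel has its own scale from 0, and the olfactory bulb stands out for Abca1 (51.8 CPM) and the cerebellum for Abca7 (28.8 CPM).

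Apoe was highest in the subventricular zone (3729 ± 557 CPM, SD, n = 55), closely followed by the pons (3707 ± 825 CPM, n = 51), hypothalamus (3513 ± 430 CPM, n = 55) and olfactory bulb (3494 ± 385 CPM, n = 58). It was lowest in the visual cortex (2112 ± 256 CPM, n = 56) and motor cortex (1678 ± 125 CPM, n = 59). Neighbouring regions in such an order are called apart here where the mean difference in log2 CPM, over mice with both libraries, exceeded the SD of that difference. By this measure only the step from visual to motor cortex separated 2 neighbours for Apoe, so the order among the higher regions is loose. With TMM scaling factors over all libraries the pons came first. These levels pool all ages. In the 3-month mice alone the olfactory bulb was highest (3840 ± 498 CPM, n = 10), the subventricular zone came next (3158 ± 427 CPM, n = 10) and motor cortex was again lowest.

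Apod was highest in the hindbrain and the olfactory bulb. It stood at 906 ± 145 CPM (n = 51) in the pons, 747 ± 108 CPM (n = 58) in the olfactory bulb, 709 ± 128 CPM (n = 58) in the medulla and 600.5 ± 174 CPM (n = 57) in the corpus callosum. Motor cortex (145 ± 25.7 CPM, n = 59) and visual cortex (143 ± 26.1 CPM, n = 56) were at the bottom, the visual cortex 6.34-fold below the pons. At 3 months alone the entorhinal cortex was lowest (106 ± 36.5 CPM, n = 9). No single step between neighbours exceeded its SD. In the olfactory bulb the level of Clu was the lowest of the 15 regions (549 ± 42.6 CPM, n = 58), a step of 0.72 ± 0.11 (SD of the difference in log2 CPM, 58 mice) below motor cortex. Its highest levels were in the subventricular zone (1730 ± 239 CPM, n = 55) and corpus callosum (1650 ± 332 CPM, n = 57).

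Among the transporters, Abca1 was set apart in the olfactory bulb (51.8 ± 6.39 CPM, n = 58), 0.92 ± 0.26 in log2 CPM (57 mice) above the cerebellum (27.7 ± 5.26 CPM, n = 58). Over all ages motor cortex was lowest at 11.7 ± 1.73 CPM (n = 59), and at 3 months alone the medulla was (9.72 ± 2.00 CPM, n = 10). Abca7 was set apart in the cerebellum (28.8 ± 4.55 CPM, n = 58), 0.87 ± 0.25 in log2 CPM (58 mice) above the thalamus (15.5 ± 1.97 CPM, n = 59), and was lowest in the caudate putamen (4.57 ± 1.51 CPM, n = 58). Abca8a was highest in the corpus callosum (24.6 ± 6.81 CPM, n = 57) and choroid plexus (24.1 ± 10.2 CPM, n = 57) and lowest in the visual cortex (4.02 ± 1.36 CPM, n = 56). At 3 months alone its highest levels were in the pons (16.1 ± 1.58 CPM, n = 9) and corpus callosum (13.9 ± 2.35 CPM, n = 10). Abcg1 varied least, from 64.8 ± 8.35 CPM (n = 58) in the cerebellum to 31.5 ± 6.92 CPM (n = 58) in the medulla. No neighbouring regions were apart for Abca8a or Abcg1.

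These genes rose with age far more often than they fell. A slope over age was fitted in each region with sex as a covariate, as the change in log2 expression per month, and a gene was called where edgeR's adjusted p over all genes of that region was under 0.05. Of 105 gene-region pairs, 53 rose and 1 fell. Over all 214677 gene-region pairs tested in the 15 regions, 5.87% rose and 4.71% fell, and the median slope of all genes of a region lay between -0.0006 and 0.0006. The plot of slopes by region shows the 7 genes side by side.

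**Figure D2:**
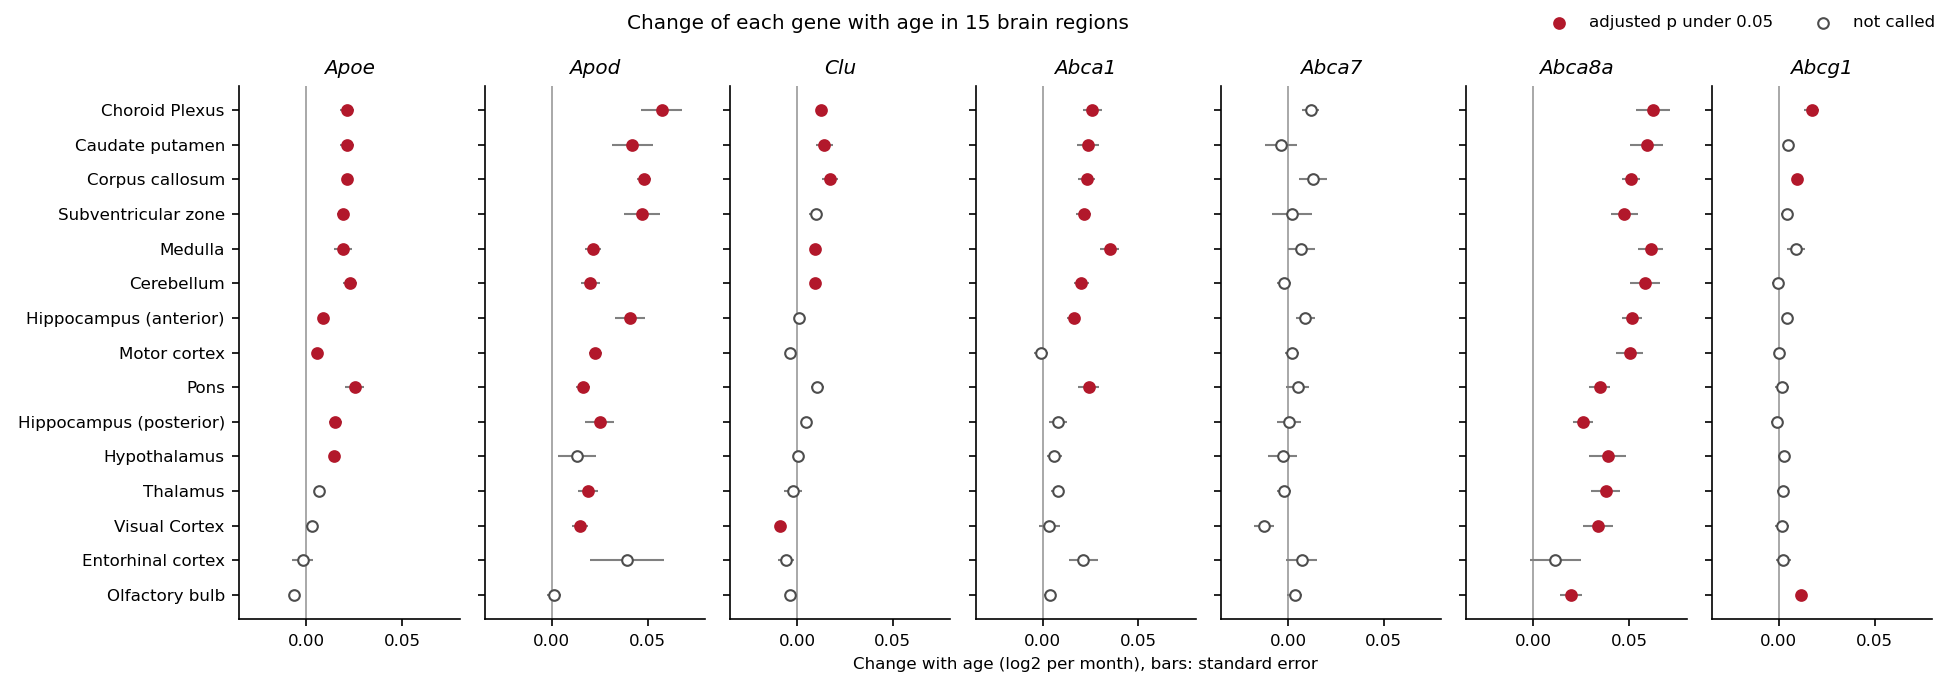
Points give the slope over age (log2 per month) of each gene in each region, lines its standard error, and filled points an adjusted p under 0.05. Abca8a was called in 14 regions, Apod in 12, Apoe in 11 and Abca1 in 8, while Abca7 was called in none.

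By region, the corpus callosum and choroid plexus had 6 of the 7 genes rising. All genes called in either direction made up 17.8% of those tested in the corpus callosum and 20.2% in the choroid plexus. All but Abca7 and Abcg1, 5 genes, rose in the caudate putamen (13.4% of all genes called), the cerebellum (17%) and the medulla (10.3%). In the anterior hippocampus (9.39%), the pons (4.69%) and the subventricular zone (7.77%), Apoe, Apod, Abca1 and Abca8a rose. Apoe, Apod and Abca8a rose in the posterior hippocampus (6.04%) and motor cortex (16.6%). Apoe and Abca8a rose in the hypothalamus (6.88%), Apod and Abca8a in the thalamus (3.83%), and Abca8a and Abcg1 in the olfactory bulb (15.6%). In the visual cortex (9.59%) Apod and Abca8a rose and Clu fell. None of the 7 was called in the entorhinal cortex, where only 0.0964% of all genes were, and none was called there without the library of mouse 52.

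Few genes of the brain rose so widely. Of 16000 genes tested in at least 1 region, 2.22% rose in 8 or more regions, 148 rose in at least 11, 90 in at least 12 and 17 in at least 14. Abca8a was among those 17, Apod among the 90 and Apoe among the 148, and Abca1 rose in 8 regions. Because the members were chosen with earlier results of these data known, their place among all genes is a description.

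Apoe, the main lipid carrier of the brain, rose in 11 of 15 regions, with slopes of the called regions between 0.0054 and 0.0252 log2 per month. In the pons the 9 mice of 3 months ranged from 2270 to 3468 CPM with a median of 2970 CPM, and the 3 mice of 28 months had 4574, 5017 and 4542 CPM. Every old mouse thus lay above every young one. The slope there was 0.0252 (SE 0.0049, adjusted p = 0.00028), which amounts to a 1.55-fold rise over the 25 months. In the cerebellum the 10 young mice ranged from 1740 to 2073 CPM with a median of 1977 CPM, against 3144, 2917 and 2864 CPM at 28 months. The caudate putamen gave 1987 to 2917 CPM with a median of 2372 CPM at 3 months and 4181, 3611 and 4331 CPM at 28 months. All 28-month mice exceeded all 3-month mice in 9 regions for Apoe. The same was true of 3.91% of all gene-region pairs whose means at both ages summed to more than 2 CPM.

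In the olfactory bulb Apoe did not rise: its slope was -0.0063 log2 per month, not called. It was called as a fall at 3 to 21 months alone (-0.0092), in mice 16 to 56 alone (-0.0102) and without mouse 37 (-0.0070). It was lower than at 3 months there at 12 months (log2 fold -0.20, SE 0.06, adjusted p = 0.037) and at 21 months (-0.20, SE 0.06, adjusted p = 0.022). The youngest mice spanned 3176 to 4707 CPM with a median of 3848 CPM, and the 28-month mice had a median of 3245 CPM, so the ages overlapped. Motor cortex, the region with the lowest level, had the smallest called rise, 0.0054 (SE 0.0017, adjusted p = 0.02). That call was lost at 3 to 21 months alone, in mice 16 to 56 alone and with covariates of library depth. The call in the anterior hippocampus was lost in the same age and mouse ranges, and the call in the medulla in males alone.

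Clu, the chaperone apolipoprotein, was the one gene with calls in both directions. It rose in 5 regions, by 0.0171 log2 per month (SE 0.0044, adjusted p = 0.0032) in the corpus callosum, 0.0142 in the caudate putamen, 0.0122 in the choroid plexus, 0.0095 in the medulla and 0.0094 in the cerebellum. In the corpus callosum the 3-month mice ranged from 1154 to 2116 CPM with a median of 1309 CPM, and the 28-month mice had 2312, 2015 and 1965 CPM, so the groups overlapped. In the visual cortex it fell by 0.0092 log2 per month (SE 0.0017, adjusted p = 0.00022). There the 3-month mice ranged from 983 to 1280 CPM with a median of 1178 CPM, and the 28-month mice had 874, 1003 and 966 CPM. Of the old mice, 2 lay below every young one and 1 within the young range. No region had all 28-month mice above all 3-month mice for Clu. The rise in the caudate putamen was not called when mouse 11, 57 or 59 was left out, and in males alone 1 rise, in the cerebellum, and 2 falls, in the visual and motor cortex, were called. The fall in motor cortex was also called with depth covariates and without mouse 2. At 3 to 21 months alone, Clu rose in 3 regions and fell in 1, where 8962 of all 211769 pairs rose and 6512 fell.

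Apod, the lipocalin, rose in 12 of 15 regions and had the largest mean slope of the 3 apolipoprotein genes, although the slope of Apoe was the larger in the pons, cerebellum and hypothalamus (not tested). Its steepest slopes were 0.0574 log2 per month in the choroid plexus (SE 0.0107), 0.0482 in the corpus callosum (SE 0.0035, adjusted p = 1.19e-16) and 0.0472 in the subventricular zone (SE 0.0092). In the corpus callosum the 10 mice of 3 months ranged from 343 to 467 CPM with a median of 409 CPM. The 28-month mice had 984, 1184 and 950.5 CPM, all above every young mouse.
The mean of each age in the corpus callosum was 406 CPM at 3, 489 CPM at 12, 560 CPM at 15, 622 CPM at 18, 689 CPM at 21, 812 CPM at 26 and 1039 CPM at 28 months, higher at every step. Motor cortex began at 91.6 to 170.0 CPM with a median of 118 CPM and reached 173, 186 and 174 CPM, so that every old mouse was just above every young one, and the slope was 0.0227 (SE 0.0035, adjusted p = 1.98e-06). In the olfactory bulb, a region with much Apod, 3-month mice ranged from 488 to 1029 CPM with a median of 825 CPM and 28-month mice from 646 to 815 CPM, and the slope was 0.0011 log2 per month, not called. Entorhinal cortex had a slope of 0.0392 that was not called, and 0.0319 (SE 0.0191, adjusted p = 0.79) without mouse 52. The call in the posterior hippocampus (slope 0.0251, adjusted p = 0.034) was lost when mouse 5 or 59 was left out. It was also lost without the libraries that correlated best with another region (slope 0.0137, adjusted p = 0.24), the one call of the 7 genes that was. With only the ages 3 to 21 months, Apod was called in 6 regions. Of all 211769 pairs tested at these ages, 8962 rose and 6512 fell, against 12591 and 10119 of 214677 over all ages.

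Abca1, which loads apolipoprotein E with cholesterol, rose in 8 of 15 regions, all of them rising for Apoe, Apod and Abca8a as well. The medulla had its steepest slope, 0.0351 log2 per month (SE 0.0048, adjusted p = 1.14e-07), a 1.84-fold rise over the 25 months. Young mice there ranged from 7.62 to 14.4 CPM with a median of 9.25 CPM, and the 28-month mice had 20.5, 19.9 and 13.5 CPM, so 2 of the 3 lay above the young range. The other 7 called slopes lay between 0.0162 in the anterior hippocampus and 0.0260 in the choroid plexus. The calls in the caudate putamen and anterior hippocampus were lost at 3 to 21 months alone and in mice 16 to 56 alone. The call in the pons was lost in males alone. In the olfactory bulb, where Abca1 was most abundant, the slope was 0.0037, not called, with medians of 50.8 CPM at 3 and 50.7 CPM at 28 months. Motor cortex had a slope of -0.0008, not called.

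Abcg1, a partner of ABCA1 in cholesterol export, rose in 3 regions: the choroid plexus (0.0171 log2 per month, SE 0.0038), the olfactory bulb (0.0116, SE 0.0022) and the corpus callosum (0.0095, SE 0.0028). In the olfactory bulb the 3-month mice ranged from 41.9 to 53.4 CPM with a median of 47.6 CPM, and the 28-month mice had 58.3, 60.2 and 69.7 CPM, all higher. The adjusted p there was 0.00011. It was the one region of the 15 in which Abcg1 of all 28-month mice exceeded all 3-month mice. Of the 3 calls, that of the olfactory bulb held under all 22 alternative fits. The other two were lost in males alone and with the oligodendrocyte or the microglia list as a covariate.

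Abca7 was not called in any region. Its slopes ran from -0.0126 log2 per month in the visual cortex (SE 0.0051, adjusted p = 0.11) to 0.0130 in the corpus callosum (SE 0.0071, adjusted p = 0.21), and the smallest adjusted p was 0.055, in the choroid plexus (slope 0.0119). That region was called with RLE factors and when mouse 2, 11 or 37 was left out. The slopes in the choroid plexus and visual cortex had an unadjusted p under 0.05 (0.012 and 0.015), and DESeq2 called 0 regions. The visual cortex slope was called, as a fall, at 3 to 21 months alone, in mice 16 to 56 alone and without mouse 2. In the corpus callosum the 3-month mice ranged from 4.82 to 9.82 CPM with a median of 5.85 CPM and the 28-month mice had 14.9, 6.55 and 7.65 CPM. Only 1 old mouse was outside the young range.

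Abca8a, a transporter gene of the ABCA subfamily, rose in 14 of 15 regions and had the largest slopes of the 7 genes on average, 0.0429 log2 per month over the regions against 0.0286 for Apod, 0.0159 for Abca1 and 0.0130 for Apoe. Its called slopes ran from 0.0195 in the olfactory bulb to 0.0626 in the choroid plexus (SE 0.0088, adjusted p = 2.4e-07). Taken over the 25 months, the choroid plexus slope amounts to a 2.96-fold rise. The 28-month males there averaged 2.26 times the 3-month males, with overlapping ranges. That call was lost with the microglia list as a covariate. In the medulla the 10 young mice ranged from 5.94 to 17.8 CPM with a median of 10.3 CPM, and the 28-month mice had 34.3, 39.5 and 31.3 CPM. In the corpus callosum young mice ranged from 11.2 to 18.7 CPM with a median of 13.8 CPM, and the 28-month mice had 30.0, 37.3 and 27.3 CPM. Old and young mice did not overlap in either region.
In motor cortex, where its level was low, young mice ranged from 1.71 to 5.75 CPM with a median of 2.98 CPM, and old mice had 5.71, 8.46 and 6.90 CPM, which just overlapped. The slope there was 0.0502 (SE 0.0069, adjusted p = 1.42e-07). Compared with all 14068 genes tested in motor cortex, 0.320% had a larger slope than Abca8a. The entorhinal cortex, with a slope of 0.0115 (not called), gave 0.0055 (SE 0.0131, adjusted p = 1) without mouse 52. In males alone Abca8a was called in 9 regions, and of all 211809 pairs tested in males, 7571 rose and 5598 fell.

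The levels in single mice, plotted by age and sex, show Abca8a, Apod, Apoe and Abca1 in 4 regions.

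**Figure D3:**
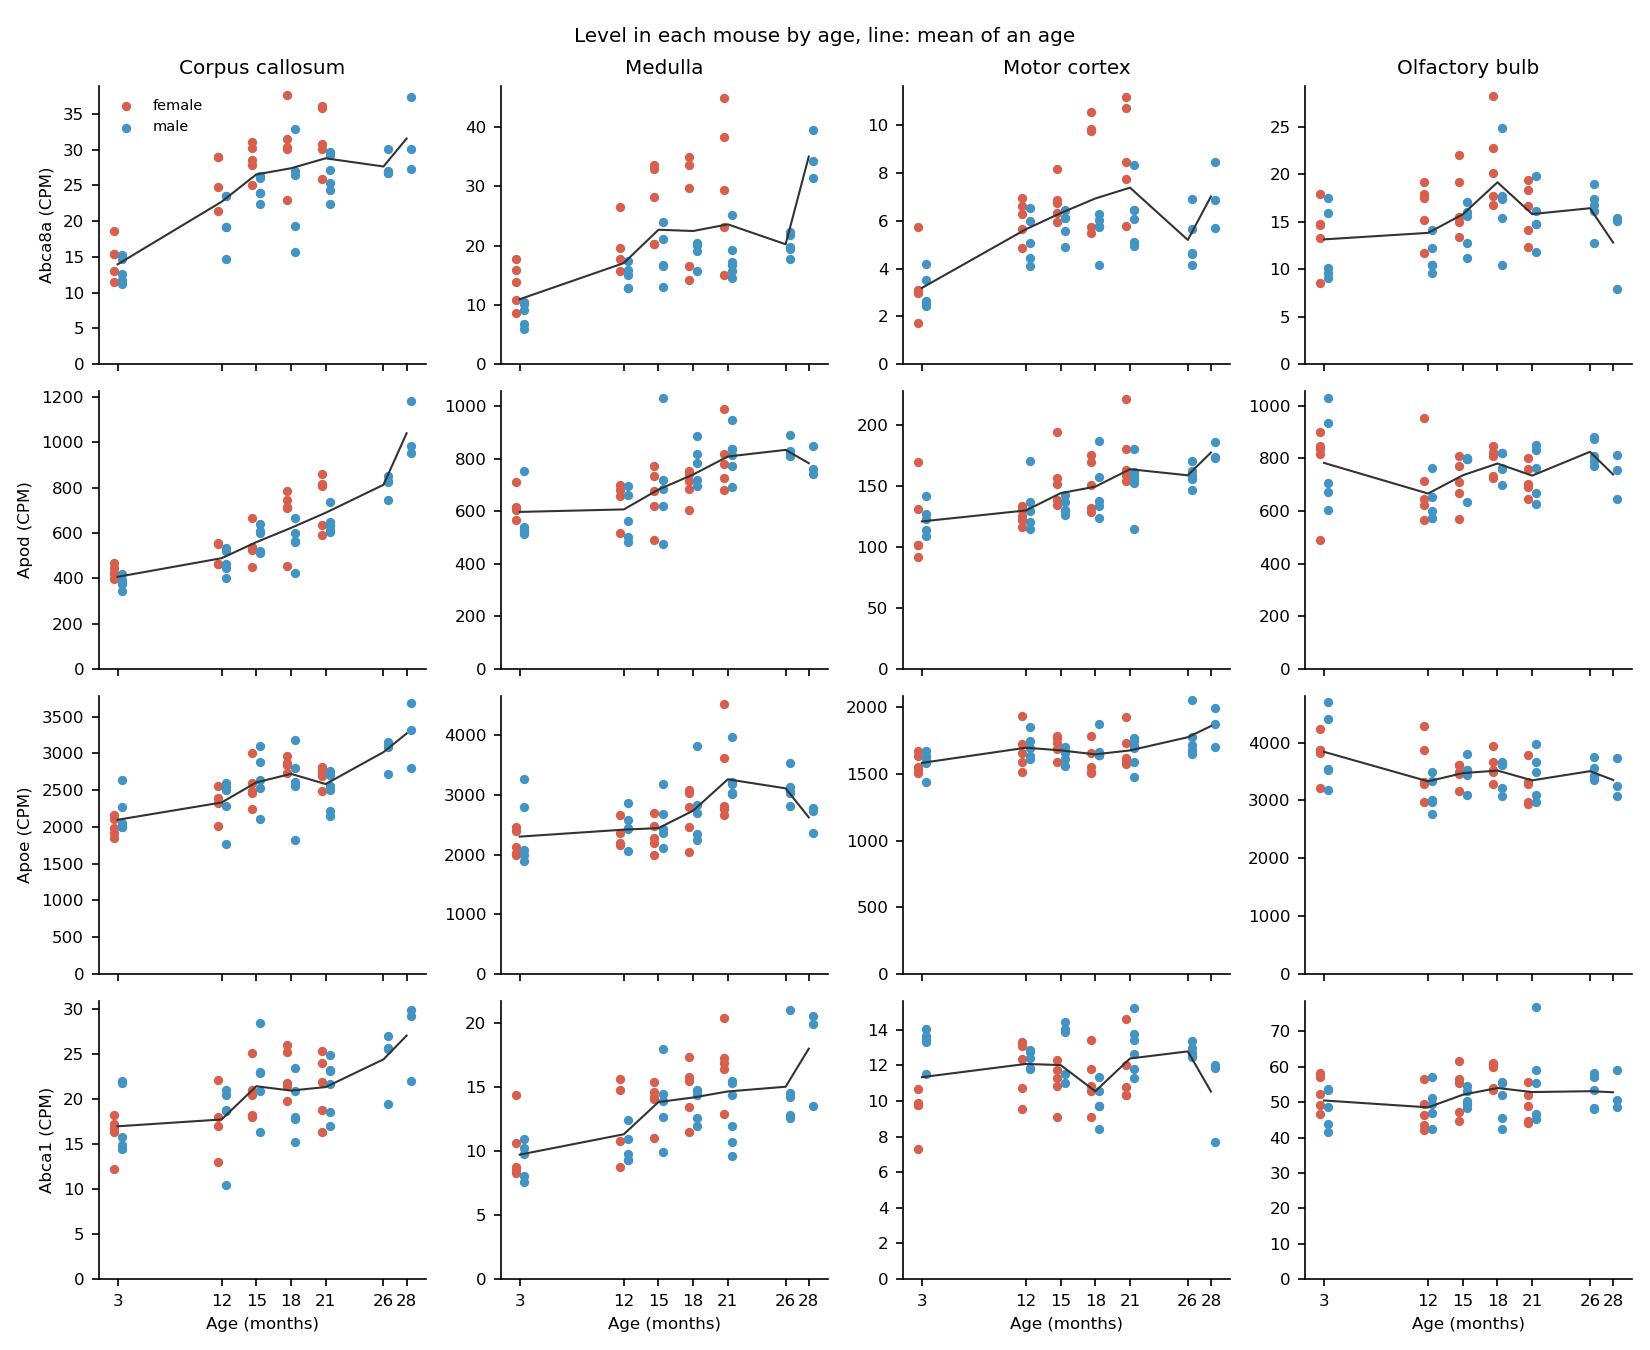
Each point is 1 mouse, its level (CPM) plotted against age (months) for 4 genes in 4 regions, with females in red and males in blue and a line through the mean of each age. Abca8a in the corpus callosum was already above its 3-month level at 12 months, Apod there was highest at 28 months (950.5 to 1184 CPM), and Abca1 in the olfactory bulb stayed near 50 CPM.

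Against 3 months, Abca8a was higher in 5 regions at 12 months, 11 at 15, 12 at 18, 13 at 21, 11 at 26 and 11 at 28 months. The median over regions of its ratio of means to 3 months was 1.48 at 12, 1.85 at 15, 1.92 at 18, 1.90 at 21, 1.98 at 26 and 2.15 at 28 months. From 15 to 26 months this ratio stayed between 1.85 and 1.98. These ratios pool the sexes, and the 26- and 28-month mice were all male. With sex in the fit, the median log2 fold over regions was 0.93 at 15 and 18 months and 0.91 at 21 months. It was 1.11 at 26 and 1.13 at 28 months. The share of all gene-region pairs called in either direction was 1.35% at 12, 1.11% at 15, 2.46% at 18, 6.18% at 21, 3.7% at 26 and 5.77% at 28 months. The contrasts share the 3-month libraries.

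At 12 months the 5 regions for Abca8a were the thalamus (log2 fold 1.15, SE 0.13, adjusted p = 6.12e-08), corpus callosum (0.73), motor cortex (0.81), cerebellum (0.78) and medulla (0.63). Apod differed from 3 months at 12 months in the thalamus alone (log2 fold 0.45, SE 0.11, adjusted p = 0.015). Its count of higher regions was 1 at 15, 2 at 18, 5 at 21, 10 at 26 and 7 at 28 months. Apoe was higher in 0 regions at 12, 1 at 15, 3 at 18, 8 at 21, 6 at 26 and 8 at 28 months, and Abca1 in 0, 1, 1, 6, 2 and 8 regions at those ages. The other 3 genes were higher in at most 3 regions at any age. For Abca7 this was the medulla at 28 months (log2 fold 0.71, SE 0.23, adjusted p = 0.017).

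**Figure D4:**
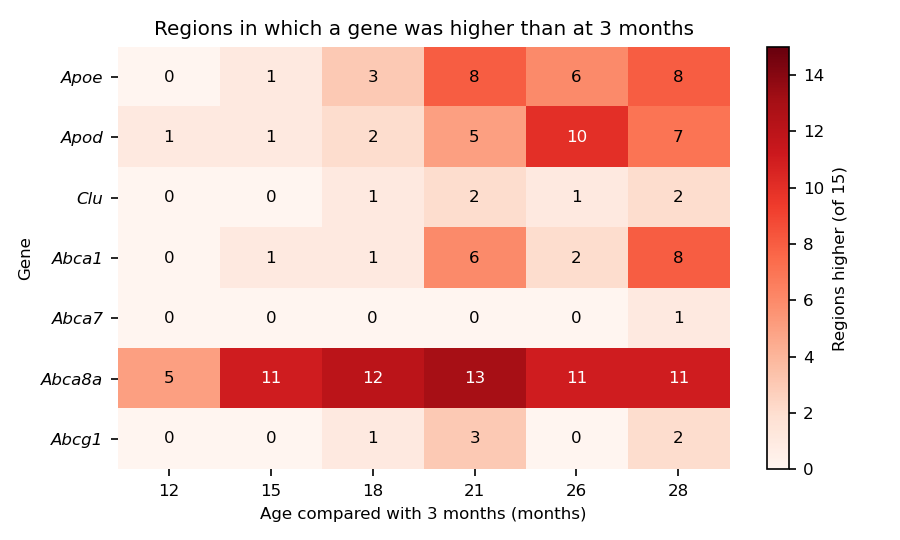
Each cell gives the number of regions, of 15, in which a gene (row) was higher than at 3 months at a given age in months (column), with adjusted p under 0.05. Abca8a reached 11 regions by 15 months, whereas Apod, Apoe and Abca1 reached 5 or more regions at 21 months or later.

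The 12- and 26-month mice carry the numbers 1 to 15, the 28-month mice 57 to 59 and the other ages 16 to 56, so an effect of number and these 3 ages cannot be told apart. Within mice 16 to 56, which hold 3, 15, 18 and 21 months, Abca8a again rose in 14 regions, Apoe in 9, Apod in 7 and Abca1 in 6. Of all 210184 pairs tested in these mice, 8090 rose and 6149 fell. Since the oldest mice were all male, 28- and 3-month males were also compared alone. The median ratio over the 15 regions was 2.29 for Abca8a, 1.45 for Apod, 1.43 for Abca1 and 1.35 for Apoe. All old males exceeded all young males in 10 regions for Abca8a, 9 for Apoe, and 7 each for Apod and Abca1. These groups held 4 or 5 young and 2 or 3 old males, and the share of all genes so separated was not computed.

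The slopes differed between regions. A joint fit over all libraries of the 15 regions, with an F test of the 14 terms that let the slope vary by region, called 6 of the 7 genes, where 19.8% of all genes were called. The adjusted p was 2.86e-13 for Apoe, 2.01e-11 for Clu, 3.04e-07 for Abca1, 1.64e-05 for Apod, 1.7e-05 for Abca8a and 0.0067 for Abcg1. For Abca7 it was 0.415. Libraries of 1 mouse were taken as separate in this fit.

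Slopes in the corpus callosum, the largest fibre tract, were compared directly with those in the motor cortex, 1 grey matter region. Of the 7 genes, 4 had a steeper slope in the corpus callosum, where 3.05% of all genes differed in either direction. The difference was 0.0257 log2 per month for Apod (SE 0.0051, adjusted p = 0.00034), 0.0238 for Abca1 (SE 0.0058, adjusted p = 0.0066), 0.0206 for Clu (SE 0.0046, adjusted p = 0.002) and 0.0159 for Apoe (SE 0.0035, adjusted p = 0.0016). For Abca8a the difference was 0.0006 (SE 0.0104, adjusted p = 1), with a 95% interval from -0.0198 to 0.0211, and the slopes themselves were 0.0511 and 0.0502. Abcg1 (0.0094, adjusted p = 0.12) and Abca7 (0.0110, adjusted p = 0.56) were not called. In males alone 2 of the 4 were called, Apod and Abca1. The comparison holds 1 region of each kind. In the caudate putamen the slopes were 0.0212 for Apoe, 0.0238 for Abca1, 0.0142 for Clu and 0.0421 for Apod. Those of the corpus callosum were 0.0214, 0.0230, 0.0171 and 0.0482 in that order, and a difference between these 2 regions was not tested.

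The level of Abca8a at 3 to 21 months was called higher in the females of 5 regions, the medulla (male minus female log2 difference -0.57, SE 0.10, adjusted p = 6.4e-05), motor cortex (-0.38), posterior hippocampus (-0.38), anterior hippocampus (-0.33) and corpus callosum (-0.29). Of all gene-region pairs, 2.71% differed by sex. Its estimate was lower in males in 14 of 15 regions. In the medulla, Abca8a averaged 13.4 CPM in 5 females and 8.51 CPM in 5 males at 3 months, and 30.2 CPM in 5 females and 18.1 CPM in 6 males at 21 months. Single mice overlapped: at 3 months females ranged from 8.58 to 17.8 CPM and males from 5.94 to 10.5 CPM.
Calls for 3 other genes were also higher in females: Clu in the hypothalamus (-0.12, SE 0.03, adjusted p = 0.0032), and Abca7 (-0.37, SE 0.10, adjusted p = 0.0089) and Abcg1 (-0.35, SE 0.07, adjusted p = 0.00025) in the medulla. Apoe, Apod and Abca1 were called in no region. The difference in slope between the sexes was called by edgeR for 0 of the 105 pairs, against 0.0727% of all pairs, and 8 of the 105 had an unadjusted p under 0.05. This fit rests on mice of 3 to 21 months.

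Marker genes of glia moved with age beside these genes. The mean of 8 homeostatic microglia markers had a positive slope in 13 of 15 regions, with a median of 0.0166 log2 per month, highest in the medulla (0.0274) and lowest in the visual cortex (-0.0024). The mean of 12 genes of activated microglia had a positive slope in all 15 regions (median 0.0429, from 0.0083 in the olfactory bulb to 0.0862 in the pons). In the corpus callosum the summed level of the homeostatic list ranged from 404 to 500 CPM at 3 months and from 592 to 791 CPM at 28 months. In motor cortex it ranged from 329 to 394 CPM and from 322 to 415 CPM, which overlapped. The list of 9 mature oligodendrocyte genes had its steepest slopes in the choroid plexus (0.0387), entorhinal cortex (0.0363) and caudate putamen (0.0231). Its summed level in the choroid plexus ranged from 5033 to 24904 CPM at 3 months and from 12430 to 17613 CPM at 28 months.

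Over the 15 regions, the slope of Apoe followed the slope of the astrocyte list with Pearson r = 0.88, of activated microglia with r = 0.85 and of mature oligodendrocytes with r = -0.07. For Clu these were 0.90, 0.78 and 0.06, and for Abca1 0.65, 0.78 and 0.35. Apod had 0.48, 0.22 and 0.71, and Abca8a 0.60, 0.63 and 0.14. The slope of Apod also had r = 0.62 with the ependyma list and -0.62 with the blood list. With the list of neuron markers, r was -0.72 for Abca1, -0.59 for Apoe and -0.55 for Clu. With homeostatic microglia it was 0.75 for Apoe, 0.68 for Clu and 0.65 for Abca1. Abca1 also had 0.62 with the list of oligodendrocyte precursors. The list slopes used all libraries, including the entorhinal cortex library of mouse 52, and were not refitted without it. Both slopes of a region come from the same libraries, and these values describe 15 points. The astrocyte genes did not move alike. Gfap, which rose in 12 regions, had a mean slope of 0.0587 and Sox9 came next at 0.0095. Slc1a2 was called in 0 regions, and Gja1 (mean slope -0.0041) rose in 0 and fell in 3.

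When the level of the homeostatic microglia list was added to the fit, 30 of the 105 pairs were called in either direction, against 54 without it. Of all 214677 pairs, 10811 rose and 10593 fell with the list, against 12591 and 10119 without it. Apoe was then called in 4 regions (cerebellum, corpus callosum, motor cortex and subventricular zone), Abca1 in 4, Apod in 5, Clu rising in 1 and Abcg1 in 1. Abca8a was called in 11. For Apoe in the medulla the slope went from 0.0190 to -0.0094, not called. Abca7 became called in 3 regions, the corpus callosum (0.0347), posterior hippocampus (0.0238) and pons (0.0227). With the oligodendrocyte list in the fit instead, Apod was called in 12 regions, Abca8a in 14, Apoe in 10 and Abca1 in 8, Clu rose in 3, against 5, and Abcg1 in 1, against 3. Of all pairs, 12561 rose and 10736 fell in that fit. The slope of Apod in the choroid plexus then went from 0.0574 to 0.0246. The part of cell content in the slopes was not tested beyond these fits, and the microglia list itself changed with age.

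**Figure D5:**
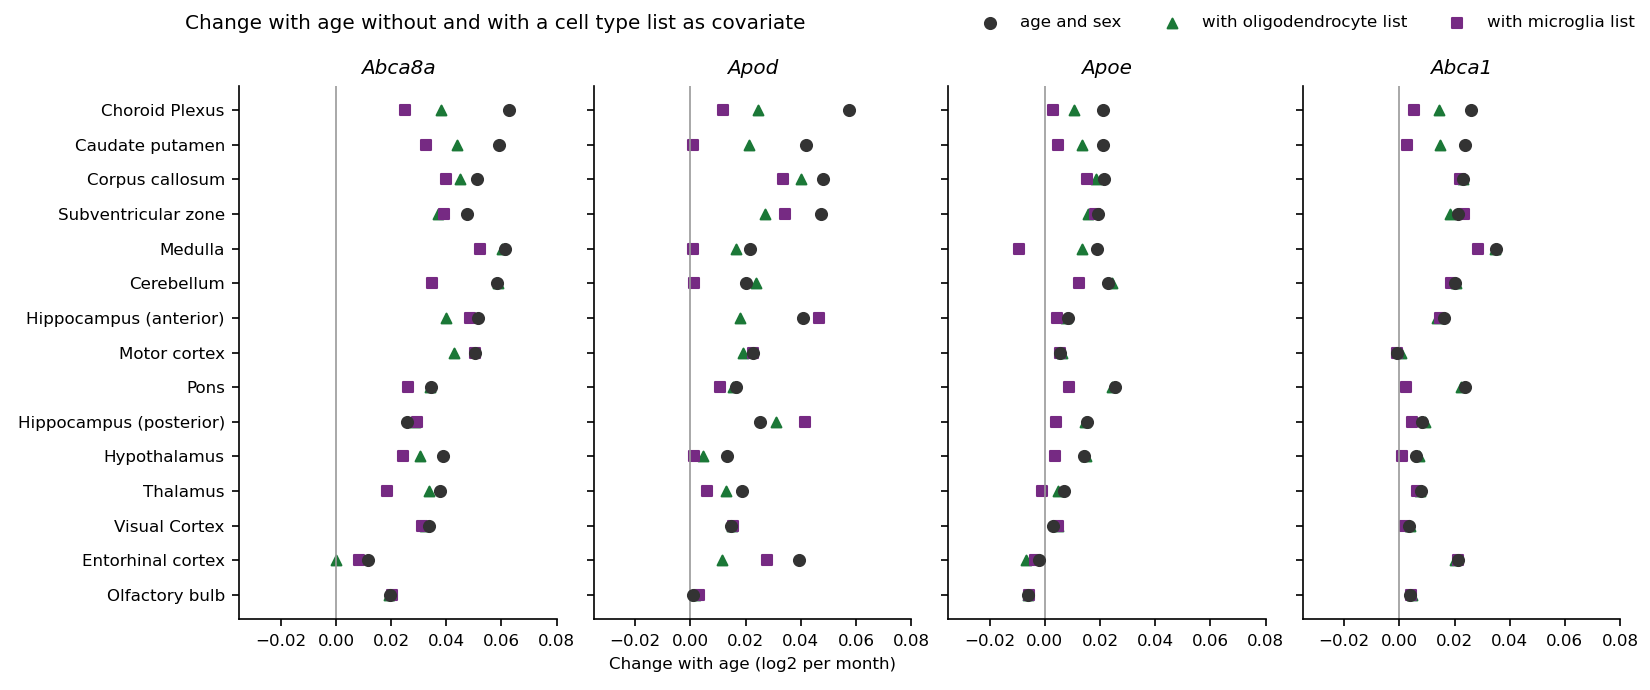
Slopes over age (log2 per month) of 4 genes in 15 regions, from the fit of age and sex (circles) and with the level of the mature oligodendrocyte list (triangles) or the homeostatic microglia list (squares) added. With the microglia list, the slope of Apoe in the medulla went from 0.0190 to -0.0094 and that of Apod in the choroid plexus from 0.0574 to 0.0117, and those of Abca8a were above 0 in all 15 regions.

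Other genes of the pathway were counted by list, and over all gene-region pairs 5.87% rose and 4.71% fell. Of 13 other apolipoprotein genes, 7 were expressed enough to be tested, giving 54 gene-region pairs of which 10 rose and 0 fell (median slope 0.0081). Apoc1, which lies 3.45 kb from Apoe, rose in 3 of the 13 regions where it was tested, Apol8 in 6 of 15 and Apoa1 in 1 of 6. Of 216 pairs of 16 other lipid-transporting ABC genes, 10 rose and 5 fell (median slope 0.0016), or 4.63% and 2.31%. Abca6 rose in 4 of 14 regions with a mean slope of 0.0200, and Abcb4, a phosphatidylcholine pump, and Abca9 in 1 of 15 each.

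Abca8a lies in a cluster of relatives on chromosome 11, and its neighbours, singled out for their place after values were seen, rose in fewer regions. Abca9 lies 4.77 kb away, Abca8b 29.8 kb, Abca6 80.8 kb and Abca5 173 kb away. Abca8b rose in 1 region and fell in 1 of 15 (mean slope -0.0017) and Abca5 was called in none, against 14 for Abca8a.

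Receptors of lipoproteins had 26 rising and 7 falling pairs of 209 (median slope 0.0017). Trem2, a microglial receptor that binds lipids and apolipoproteins, rose in 12 of 15 regions with a mean slope of 0.0414, highest in the cerebellum at 0.0935. It is also 1 of the 12 genes of the activated microglia list. The LXR pathway, whose nuclear receptors switch on Apoe, Abca1 and Abcg1 when sterols accumulate, had 32 rising and 4 falling pairs of 210 (median slope 0.0023). Srebf1, an LXR target that drives fatty acid synthesis, rose in 12 of 15 regions, with slopes between 0.0011 in the olfactory bulb and 0.0292 in the choroid plexus. The LXR receptor genes themselves, named after their values were seen, moved in few regions: Nr1h2 rose in 1 and fell in 1, and Nr1h3 rose in 1.

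Genes of cholesterol storage, export from the lysosome and oxidation had 35 rising and 17 falling pairs of 254 (median slope 0.0014). Tspo, an outer mitochondrial membrane protein used as a marker of reactive glia, rose in 12 of 15 regions (mean slope 0.0293). The list of lipid droplets and fatty acid binding had 13 rising and 7 falling pairs of 195 (median slope 0.0018). Its 6.67% rising and 3.59% falling were near the shares of all pairs, 5.87% and 4.71%. In this list Plin3, a droplet coat protein, rose in 4 regions and Plin4 in none. Fabp7, the fatty acid binding protein of astrocytes and neural progenitors, fell in 5.

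Region explained most of the variance of each gene in log2 CPM, from 64.9% for Apoe to 82.6% for Clu. Age explained 12.5% for Abca8a, 7.09% for Apoe, 4.68% for Abca1, 4.54% for Apod, 1.27% for Abcg1, 1.02% for Clu and 0.838% for Abca7. The median over 14180 genes was 0.567%.

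The genes most like each member were sought in 2 ways among the 11957 genes that averaged 5 CPM or more. The first way used log2 CPM over all libraries, after the mean of each region, sex and age was subtracted. Apod then followed Tmbim1 (r = 0.88), the myelin tight-junction gene Cldn11 (r = 0.86) and the peripheral myelin protein gene Pmp22 (r = 0.85). Apoe followed Ftl1 (ferritin light chain, r = 0.77), Cd81 (r = 0.76) and Phgdh, a serine synthesis enzyme of astrocytes (r = 0.75). Clu followed Fxyd1 (r = 0.74), Cnn3 and Dbi (r = 0.72 each). Abca8a followed the oligodendrocyte tetraspanin Tspan2 (r = 0.63), Anln (r = 0.62) and Pacs2 (r = 0.61). The closest gene was Clasp2 for Abcg1 (r = 0.61), Mroh1 for Abca7 (r = 0.55) and Wnk1 for Abca1 (r = 0.46). Among the 7 genes themselves, Apoe and Clu were the most alike (r = 0.65), then Apod and Abca8a (r = 0.53). These libraries share mice, dissections and depth.

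Over the 15 region means the closest genes were others. Apoe followed Dll1 (r = 0.92), Apod Golga7 (r = 0.96), Clu Gpr39 (r = 0.87), Abca1 Yes1 (r = 0.94), Abca7 Cerk (r = 0.95), Abca8a Efnb3 (r = 0.91) and Abcg1 Amer2 (r = 0.91). With 15 points and 11957 genes to choose from, such values are a description of the map.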

How the data were processed

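Polyadenylated RNA was measured in libraries from homogenised brain regions by Smart-Seq2 amplification and unstranded sequencing, per the labels' protocols. The authors deposited whole-number read counts per gene, not normalised. Trim Galore 0.3.7, STAR 2.5.3a, DESeq2 and GRCm38 are named, without role or order, in the submitters' processing notes, and the counting tool and its annotation are not given in the sources used here. Unstranded reads cannot separate a gene from an antisense partner.

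Levels are CPM. Log2 CPM used a prior count of 2. Tests used edgeR 4.0.16 in R 4.3.3 (quasi-likelihood, TMM factors, filterByExpr, Benjamini-Hochberg over all genes of a fit, adjusted p under 0.05, 2-sided) and were checked on simulated data. DESeq2 1.42.0 and limma 3.58.1 gave alternatives. Slopes were fitted per region beside sex. Replicate numbers are mouse numbers, so equal numbers in 2 regions are the same animal. Within a region each mouse gave 1 library. Named pathway genes were those called the same way in at least 10 regions, otherwise up to 3 per list with the largest absolute mean slope over at least 5 regions. For likeness, genes averaging 5 CPM or more were ranked by Pearson r. The members and lists were chosen with earlier results of these data known. Lists of neurons, precursors, vessels, meninges, ependyma and blood were counted as well.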

Additional observations from a re-analysis of the deposited data

Results flagged for a closer look

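In 6 of 105 groups of 3-month mice, 1 mouse lay far from the others of its region by Dixon's criterion, which flags about 1 in 20 groups by chance. The high values were 188 CPM for Apod in the entorhinal cortex (mouse 21), 14.4 CPM for Abca1 and 23.6 CPM for Abca7 in the medulla (both mouse 49), 18.9 CPM for Abca7 in the thalamus (mouse 25) and 6.16 CPM for Abca8a in the visual cortex (mouse 37). The low value was 24.6 CPM for Abcg1 in the thalamus (mouse 17).

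The slope over age differed between the 15 regions by edgeR's F test for 6 genes, with adjusted p of 2.86e-13 for Apoe, 1.64e-05 for Apod, 2.01e-11 for Clu, 3.04e-07 for Abca1, 1.7e-05 for Abca8a and 0.00672 for Abcg1. Between the corpus callosum and motor cortex it differed by 0.0159 log2 per month for Apoe, 0.0257 for Apod, 0.0206 for Clu and 0.0238 for Abca1, each steeper in the corpus callosum.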

How the results depend on the processing

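Of 56 alternatives to the main counts, 52 stayed within 1.5 times of them, and a count holds no direction. Among the called slopes, the estimate changed sign in 1 alternative each for 3 pairs. These were Apoe in the medulla (to -0.0094), Clu in the medulla (to -0.0068) and Clu in the caudate putamen (to -0.0025). With the homeostatic microglia list as a covariate, 30 gene-region pairs had a called slope, against 54, and the cause was not tested. Leaving out each of 12 mice in turn gave 52 to 57 pairs. Leaving out the 21 libraries closest to another region, chosen after seeing the data, gave 53. Of the comparisons of later ages with 3 months, 153 were called, 75 in mice 16 to 56 alone, which hold no 12-, 26- or 28-month mice, and 95 in males alone, with fewer samples. In males alone, 2 genes differed between the corpus callosum and motor cortex, against 4; the differences for Apoe (0.0127) and Clu (0.0183) were not called.

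Since the same mice gave both regions, the comparison was also fitted with a replicate block by mouse, which called the same 4 genes, and the joint test with such a block in limma called 6; the block changed no call. The shallowest of these genes had a median of 63 counts per library (Abca7) and 90 (Abca8a).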

Other observations

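The marker lists were also counted gene by gene. Over all gene-region pairs, 5.87% rose and 4.71% fell. Several lists were near the rising share, such as endothelium with 5.71% and choroid plexus epithelium with 6.82%. Of 120 gene-region pairs of neuronal markers, 4 rose and 11 fell, and of 90 pairs of oligodendrocyte precursor markers, 2 rose and 9 fell. Markers of endothelium had 6 rising and 1 falling of 105 pairs, markers of pericytes and vascular muscle 4 and 11 of 105, and markers of fibroblasts and meninges 5 and 8 of 120. Ependymal markers had 3 rising and 1 falling of 68 pairs, choroid plexus epithelium 6 and 2 of 88, and blood 12 and 0 of 75. Astrocyte markers had 28 rising and 8 falling of 135 pairs, mature oligodendrocyte markers 21 and 0 of 135, homeostatic microglia 70 and 2 of 120, and activated microglia 114 and 0 of 173.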
